A study of Drosophila melanogaster with 2 samples.

Results

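Transfer RNA (tRNA) genes of the nuclear genome were taken as every gene of the Ensembl BDGP6 annotation on the chromosome arms whose symbol starts with tRNA:, which gave 295 of 18164 genes. A tRNA gene counted as having a region when the summit of that region lay within 500 bp of the transcription start site (TSS), on either side. The summit is the deposited point of highest signal. By that rule 5 tRNA genes had an optimal peak, and they shared 4 of the 1302 optimal peaks. Of the 82 pooled regions at tRNA genes, these 4 were optimal peaks and the others were candidate regions that the study's threshold did not keep.

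The study profiled CG14965 by chromatin immunoprecipitation with sequencing (ChIP-seq). Both samples belong to 1 group, whole embryos of pooled sex aged 0 to 24 h from 1 transgenic line, in which the CG14965 protein carries enhanced green fluorescent protein (eGFP) at its C terminus. Chromatin was sonicated to fragments of 200 to 800 bp and precipitated with an antibody to GFP, and the labels number the samples as biological replicates 3 and 4. No untagged line was analysed here, every cell type of the embryo is mixed, and there is no second condition to compare. Each replicate and the pool of both has a list of 30000 regions made as input for the irreproducible discovery rate (IDR) procedure, and each holds background regions as well as peaks. The optimal list is the 1302 pooled regions of highest signal, where signal is the deposited value of each region, a score of unstated scale that is read here only within a list. Read depth is unknown.

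A tRNA carries an amino acid to the ribosome and reads the matching codon. Its gene is transcribed by RNA polymerase III (Pol III) from promoter elements inside the transcribed sequence, the A box and the B box, which are bound by the factor TFIIIC. TFIIIC places TFIIIB just upstream of the start, and TFIIIB recruits the polymerase. Drosophila tRNA genes are short, occur in many identical copies and often lie in small clusters, and in several eukaryotes some of them act as boundaries between chromatin domains. The 295 genes carry 44 anticodons of 22 isotypes, the initiator methionine and selenocysteine tRNAs included, and have a median length of 73 bp, from 71 to 186 bp. The annotation calls 5 of them pseudogenes.

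The genes below show the internal promoter for tRNA:Tyr-GTA-1-8, which had the strongest optimal peak within the rule, and for tRNA:Val-CAC-2-5. They are printed 5′ to 3′ on the sense strand from the Release 6 genome (dm6), chr3R:8669081-8669174 and chr3R:19672277-19672349, both on the minus strand. Capitals mark matches to the A box letters TNGCNNAG and the B box letters GTTCNANNC. The tyrosine gene is longer because the annotation splits it into exons with an intron between them. The valine gene matched the B box letters and not the A box letters, which does not show that it lacks an A box.
tRNA:Tyr-GTA-1-8 gene: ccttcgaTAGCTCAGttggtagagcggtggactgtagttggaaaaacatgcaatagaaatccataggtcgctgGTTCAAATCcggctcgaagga
tRNA:Val-CAC-2-5 gene: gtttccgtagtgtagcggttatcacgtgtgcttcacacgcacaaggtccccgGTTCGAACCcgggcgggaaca

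The summits of the optimal peaks lay elsewhere, and the sequences under 3 of them are shown so that they can be read against the genes. Each is printed on the strand of its tRNA gene, within 50 bp of the summit, at chr3R:8669315-8669415, chr3R:19671835-19671935 and chrX:6744239-6744338. None contained the letters of either box, on either strand, so no letter is in capitals. All 3 lie outside the tRNA genes, in an intron of p and CG8036, in an intron of Naam, and between tRNA:Phe-GAA-1-2 and RpL17.
Summit upstream of tRNA:Tyr-GTA-1-8: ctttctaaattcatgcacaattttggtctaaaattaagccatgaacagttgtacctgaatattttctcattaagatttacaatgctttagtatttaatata
Summit downstream of tRNA:Val-CAC-2-5: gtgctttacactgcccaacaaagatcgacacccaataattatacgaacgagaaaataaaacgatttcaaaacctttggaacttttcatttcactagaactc
Summit downstream of tRNA:Phe-GAA-1-2: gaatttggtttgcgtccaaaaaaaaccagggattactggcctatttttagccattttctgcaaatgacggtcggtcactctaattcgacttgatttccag

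Few tRNA genes had an optimal peak. The count was 5 of 295 genes (1.69%, 95% Wilson interval 0.726 to 3.91%), beside 4.18% of all genes on the arms. Many genes of other classes have several TSSs and so more chances to be counted, whereas a tRNA gene has 1. Among 14033 other genes with 1 TSS the share was 2.77%, a value inside the tRNA interval. It was 1.84% for 3261 other noncoding RNA genes, 3.35% for 269 small nucleolar RNA genes and 4.90% for 13945 protein-coding genes. Of 32 small nuclear RNA genes, 0 had an optimal peak. No test was made between these classes, since genes are not replicates and 1 peak can count for several genes.

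The strongest peak lay at a tyrosine tRNA gene. tRNA:Tyr-GTA-1-8 (FBgn0012024) stands in a group of 3 tRNA genes inside the protein-coding genes p and CG8036, on the strand of p. Its peak covers 123 bp at chr3R:8669315-8669437, with the summit 191 bp upstream of the tRNA start. The pooled signal was 167, rank 260 of 30000. In replicate 3 the overlapping region had a signal of 96.3 at rank 271, and in replicate 4 a signal of 77.1 at rank 230, so this site stood high in both lists. The nearest TSS of another gene, CG8036, lay 253 bp from the summit, and tRNA:Tyr-GTA-1-7 begins 660 bp from it, outside the 500 bp rule.

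The arginine peak stood at a divergent pair of tRNA genes. tRNA:Arg-CCT-1-2 (FBgn0050212, chr2R:20000296-20000368, minus strand) and tRNA:Arg-CCT-1-3 (FBgn0053538, chr2R:20000819-20000891, plus strand) point away from each other. The peak at chr2R:20000356-20000791 fills the space between them, with its summit 206 bp upstream of the first and 245 bp upstream of the other. No other class of gene is close, since the nearest TSS, of CG16898, was 4429 bp away. The pooled signal was 78.2 (rank 1054) and that of replicate 3 was 64.9 (rank 586). Replicate 4 had no overlapping region: its nearest summit lay 883 bp away with a signal of 12.8 at rank 28047. The only one of the 4 peaks with no TSS of another gene class within 500 bp of its summit thus had an overlapping region in replicate 3 alone.

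Both remaining peaks lay nearer to a protein-coding gene than to the tRNA gene. The peak at tRNA:Val-CAC-2-5 (FBgn0012003), chr3R:19671667-19672102, had its summit 464 bp downstream of the tRNA start. It was 435 bp from the TSS of Naam, a nicotinamidase gene that contains the tRNA gene on the opposite strand. Its pooled signal was 73.1 (rank 1196), with 31.7 in replicate 3 (rank 2352) and 32.1 in replicate 4 (rank 1392). The peak at tRNA:Phe-GAA-1-2 (FBgn0052740, chrX:6744471-6744543, minus strand) lay at chrX:6744070-6744505, 255 bp downstream of the tRNA start. Its summit was 50 bp from the TSS of RpL17, which encodes a protein of the large ribosomal subunit. The pooled signal there was 71.9 (rank 1226), with 36.7 in replicate 3 (rank 1726) and 39.1 in replicate 4 (rank 821). Both peaks were listed in both replicates, and in neither case can the tRNA gene and the neighbouring promoter be told apart as the place of binding.

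**Figure D1:**
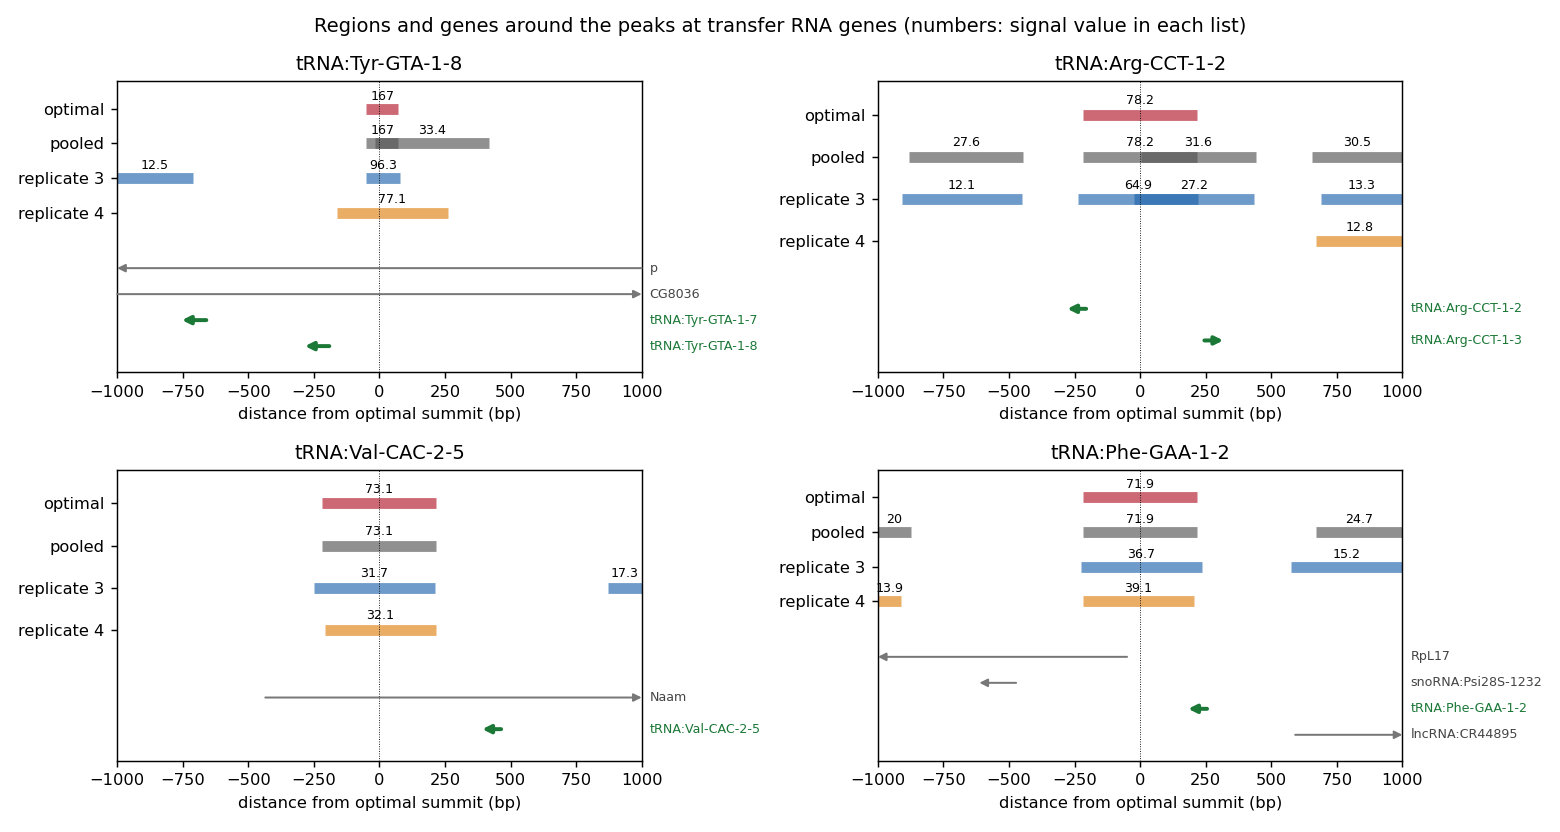
Regions listed around each of the 4 optimal peaks at tRNA genes, drawn by distance from the optimal summit in bp. Bars are regions of each list with their signal value (darker where 2 regions of a list overlap), green arrows are tRNA genes and grey arrows other genes, and arrowheads give the strand; replicate 4 has no bar under the arginine peak.

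These 4 peaks sat near the bottom of the optimal list, apart from the tyrosine site. Their median pooled signal was 75.6 (range 71.9 to 167), beside 103 for the 583 optimal peaks near another TSS only and 101 for the whole list. The lowest signal in the optimal list was 69.8. Just under it, the next region at a tRNA gene had a signal of 67.9.

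That region led the 10 strongest candidates at tRNA genes outside the optimal list. Its summit lay upstream of tRNA:Pro-AGG-1-2 by 407 bp, and it had a signal of 24.3 in replicate 3 and 41.2 (rank 737) in replicate 4, and the nearest TSS of a gene that is not a tRNA gene lay 10218 bp away. The next lay within 500 bp of tRNA:Trp-CCA-2-2 and tRNA:Gly-GCC-1-9 (pooled 67.7), 233 bp from the start of the tryptophan gene, with its summit 54 bp from the TSS of CG30122, and was higher in rank in replicate 3 (43.0, rank 1280) than in replicate 4 (20.3, rank 7167). The region at tRNA:Val-CAC-1-1 had a pooled signal of 59.0, with 34.0 in replicate 3 and 20.3 in replicate 4. At the tRNA:Ala-CGC-1-2 and tRNA:Ala-CGC-1-3 genes, inside gol, the pooled signal was 52.5. At tRNA:Ala-AGC-2-1, inside nmo, it was 52.0, and both alanine sites were listed in both replicates. Replicate 4 had no overlapping region at tRNA:Ala-TGC-2-1 (pooled 47.7), the glutamate cluster of tRNA:Glu-CTC-1-1, tRNA:Glu-TTC-1-1 and tRNA:Glu-TTC-1-2 (39.5), and tRNA:His-GTG-1-3 (39.4). The last of the 10 were tRNA:Leu-CAG-1-2 (38.8) and tRNA:Gly-TCC-2-2 (38.2), and the summit of the glycine region was 11 bp from the tRNA start.

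**Figure D2:**
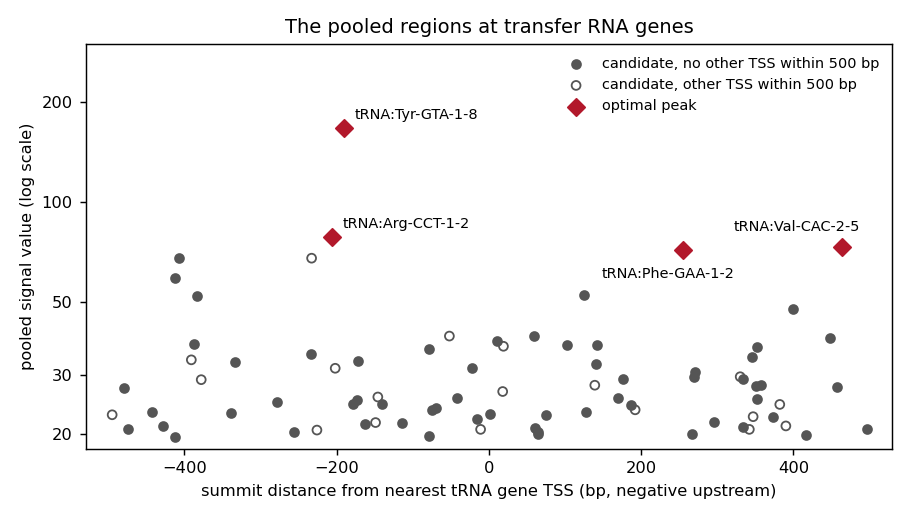
Pooled signal value (log scale) of each of the 82 pooled regions at tRNA genes against the distance of its summit from the nearest tRNA gene start in bp, negative upstream. Diamonds are the 4 optimal peaks, filled circles are candidates with no TSS of a gene other than a tRNA gene within 500 bp and open circles those with such a TSS; the tyrosine peak at 167 stands above the rest, and the points do not gather at 0.

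Regions of any strength were listed at about as many tRNA genes as at other genes with 1 TSS. A pooled candidate region had its summit within 500 bp of 96 tRNA genes (32.5%, 27.4 to 38.1%), beside 39.0% of all genes and 33.0% of other genes with 1 TSS. The 82 distinct regions lay at 68 of the 176 loci that tRNA genes form when neighbours within 1000 bp are joined. Their median signal was 25.7 (range 19.6 to 167), beside 28.9 for regions near another TSS only and 26.2 for the whole list, and 13 of them (15.9%) were among the 5000 highest. Of the 82, 4 were optimal peaks (4.88%, 1.91 to 11.9%), beside 7.97% of 7314 regions near another TSS only and 3.16% of 22604 regions near no TSS. That interval contains both other shares.

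The replicates gave different counts at tRNA genes. Replicate 3 had a region at 138 tRNA genes (46.8%, 41.2 to 52.5%) beside 43.1% of all genes. Replicate 4 had a region at 56 (19.0%, 14.9 to 23.8%) beside 31.8% of all genes. Beside other genes with 1 TSS, of which 36.4% had a region in replicate 3 and 27.0% in replicate 4, the tRNA share was higher in replicate 3 and lower in replicate 4. Protein-coding genes, with all their TSSs counted, had 47.4% and 34.3%, small nucleolar RNA genes 36.4% and 37.2%, and other noncoding RNA genes 28.7% and 24.1%. Counted once each, the regions numbered 116 in replicate 3, of which 37 served more than 1 tRNA gene, and 56 in replicate 4, of which 6 did.

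**Figure D3:**
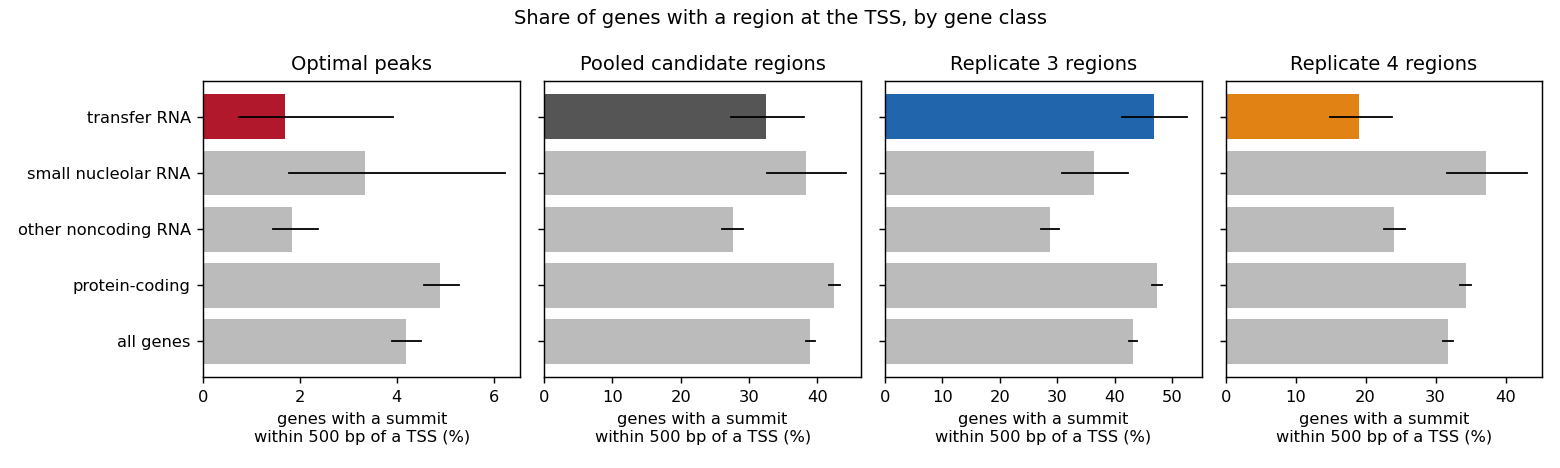
Share of genes, in percent, with a region summit within 500 bp of a TSS, by gene class (rows) in each list (panels, each with its own axis from 0). Lines are 95% Wilson intervals, which cover the counting of genes alone; in the optimal and replicate 4 panels the tRNA bar is the shortest of those drawn, at 1.69% and 19.0%, and in the replicate 3 panel it is level with protein-coding genes.

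By gene, 35 tRNA genes had a region in both replicates, 103 in replicate 3 only, 21 in replicate 4 only and 136 in neither. This split was not counted over all genes, of which 43.1% had a region in replicate 3 and 31.8% in replicate 4. It is therefore not read as particular to tRNA genes. The excess of replicate 3 at tRNA genes was seen at most depths of the ranked lists. Among the 5000 highest regions of each replicate, 31 tRNA genes were reached in replicate 3 and 9 in replicate 4, a ratio of 3.44, beside 1.54 for all genes. At 10000 regions the ratio was 2.55 beside 1.56, and at all 30000 regions 2.46 beside 1.35. These ratios count a region once for each gene it reaches. Counted once each, the regions at tRNA genes numbered 23 in replicate 3 and 8 in replicate 4 among the 5000 highest. Among the 10000 highest they numbered 45 and 20, and in the whole lists 116 and 56. Among the 1302 highest the excess by gene was gone: 4 tRNA genes in each replicate (1.36%), beside 4.40% of all genes in replicate 3 and 3.75% in replicate 4. With 2 samples, this difference has no replicate of its own, and its relation to depth or library quality was not tested.

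By the 500 bp rule, the genes reached by the 1302 highest regions were not the same in each replicate. In replicate 3 they were tRNA:Tyr-GTA-1-8, both arginine genes and tRNA:Trp-CCA-2-2. In replicate 4 they were tRNA:Tyr-GTA-1-8, tRNA:Pro-AGG-1-2, tRNA:Phe-GAA-1-2 and tRNA:Ile-AAT-1-9, the last with a region of signal 33.1 at rank 1278 whose summit was 444 bp upstream of the start. Replicate 3 also had a region overlapping that isoleucine region, with a signal of 51.6 at rank 908. Its summit lay outside the 500 bp rule, so the gene was not counted there. By the rule, only the tyrosine gene was in both sets. Over all genes, these highest regions reached 799 in replicate 3 and 682 in replicate 4. How many of those were in both was not counted, so the small overlap is not read as particular to tRNA genes. Of the 116 regions of replicate 3 at tRNA genes, 39 (33.6%, 25.7 to 42.6%) overlapped any region of replicate 4, beside 45.7% of its regions near another TSS only. In the other direction, 34 of 56 (60.7%, 47.6 to 72.4%) overlapped a region of replicate 3, beside 60.3%.

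Summits were not concentrated on tRNA genes in the pooled list. Of the 82 pooled summits, 8 lay inside a tRNA gene, 39 upstream and 35 downstream, and the median distance from the nearest tRNA start was 233 bp. Within 100 bp of that start lay 18 summits (22.0%), beside 29.9% of pooled summits at protein-coding TSSs. In replicate 3 the share was 33.6% (39 of 116), beside 34.9% at protein-coding TSSs, and 17 summits lay inside a tRNA gene. In replicate 4 it was 16.1% (9 of 56), beside 24.8%, with 7 inside a gene. None of the 4 optimal summits was within 100 bp of a tRNA start, whereas 196 of 546 optimal summits at protein-coding genes were within 100 bp of a TSS.

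The density of summits was also counted in bins of 250 bp out to 2000 bp. In the 250 bp just upstream of the start, the pooled list had 9.49 summits per 100 tRNA genes and 15.7 per 100 protein-coding TSSs. In replicate 3 the values were 14.9 and 19.4, and just downstream 14.9 and 14.7. In replicate 4 they were 3.73 and 10.5 upstream, and 4.75 and 7.44 downstream. Around tRNA genes, the middle of the window was thus the densest part in replicate 3 and the sparsest in replicate 4.

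**Figure D4:**
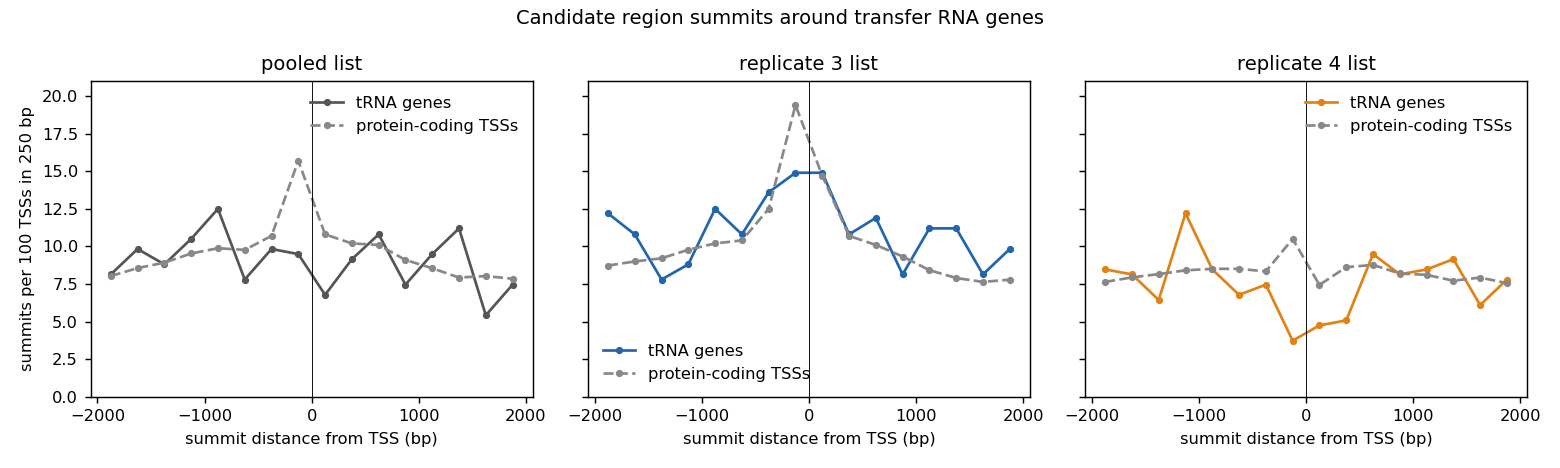
Candidate summits per 100 TSSs in bins of 250 bp, by distance from the start in bp (negative upstream), for tRNA genes (solid) and protein-coding TSSs (dashed) in the pooled, replicate 3 and replicate 4 lists. At the start the tRNA line rises to 14.9 in replicate 3 and falls to 3.73 in replicate 4.

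Other genes lay close to a part of these sites, while 60 of the 82 pooled summits had no other TSS within 500 bp. A TSS of another class lay within 500 bp of 43 tRNA genes, and 2 of these had an optimal peak and 22 a pooled region. Of the 252 without such a neighbour, 3 had an optimal peak and 74 a pooled region, and 2 of their 64 distinct regions were optimal. These include tRNA:Val-CAC-2-5, whose peak summit lay 435 bp from the TSS of Naam. Of the 82 pooled summits, 70 were nearer to a tRNA start than to any other TSS, and this held for 2 of the 4 optimal summits. Of the tRNA genes, 137 lay inside a protein-coding gene, and a pooled region was listed at 43 of these 137 and at 53 of the 158 outside.

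Genes with a region were scattered over isotypes, in lists that hold background regions as well as peaks. Over all isotypes the tRNA share was 46.8% in replicate 3 and 19.0% in replicate 4, beside 43.1% and 31.8% of all genes. In replicate 3 the leucine tRNA genes had a region at 15 of 22 and the glutamine genes at 9 of 12, while in replicate 4 these counts were 4 and 3. The alanine genes were reached at 11 of 17 in replicate 3 and 6 in replicate 4. Glutamate genes had 9 of 21 against 1, and isoleucine genes 8 of 12 against 1. Replicate 3 had the higher count in every isotype except aspartate, with 2 of 14 against 4, and elongator methionine, with 1 of 6 in each. The initiator methionine tRNA, which starts translation, had a pooled region at 4 of its 6 genes and no optimal peak.

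**Figure D5:**
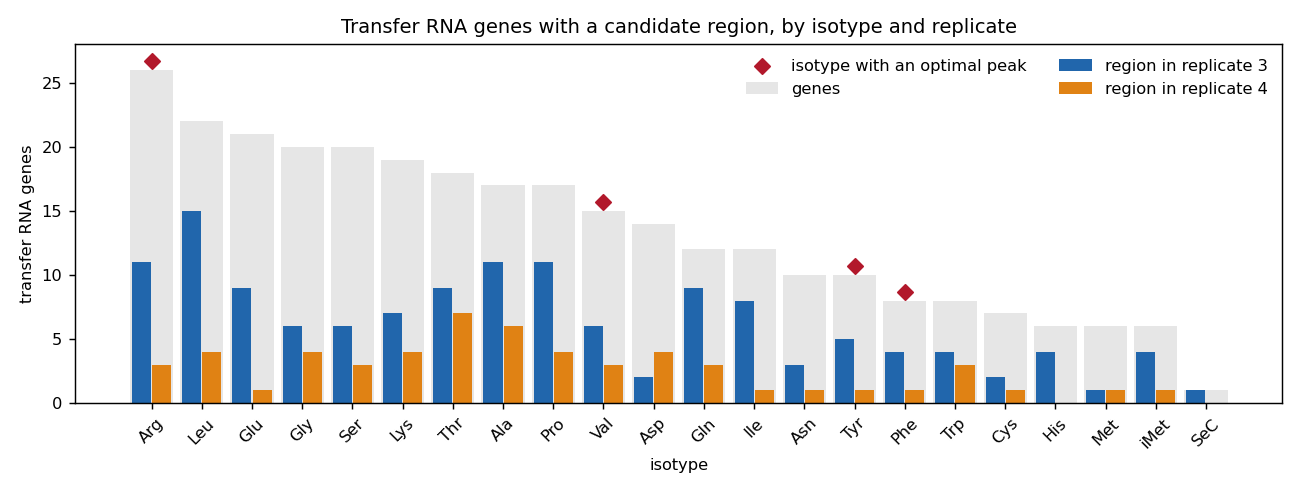
Number of tRNA genes of each isotype (light bars) and of those with a region in replicate 3 (blue) and in replicate 4 (orange). Diamonds mark the 4 isotypes with an optimal peak, Arg, Val, Tyr and Phe; in leucine the counts are 15 of 22 for replicate 3 and 4 for replicate 4.

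Over chromosome arms, optimal peaks were found at 2 of 100 tRNA genes on 2R, 2 of 79 on 3R, 1 of 26 on X and none of 41 on 2L or 49 on 3L. Over all arms these were 5 tRNA genes (1.69%), beside 4.18% of all genes. Shares of all genes on each arm were not counted, and counts this small do not tell arms or group sizes apart. Replicate 3 reached 54 tRNA genes on 2R and replicate 4 reached 16, while on 3R the counts were 38 and 23. Genes that stand alone had an optimal peak at 2 of 105, genes in groups of 2 or 3 at 3 of 138, and genes in larger groups at 0 of 52. In those larger groups, 20 genes had a region in replicate 3 and 5 in replicate 4, beside 43.1% and 31.8% of all genes.

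Identical tRNA genes seldom all had a region. The 295 genes have 100 distinct sequences, and 238 genes have at least 1 identical copy, up to 13 in all. Of 43 sets of identical genes, 32 had a pooled region at some members and not at others, 1 at every member and 10 at none. A pooled region was listed at 32.5% of all tRNA genes. The number of complete sets that this share alone would give was not tested. A pooled region was at 17 of 57 genes with 1 copy and 20 of 58 with 2 to 4 copies. For 5 or more copies it was 59 of 180. Phe-GAA has 8 identical genes, of which only tRNA:Phe-GAA-1-2 had an optimal peak. Val-CAC-2 has 6, of which only tRNA:Val-CAC-2-5 had one, and tRNA:Val-CAC-2-3 had regions in the pooled and both replicate lists below the threshold. The third arginine copy, tRNA:Arg-CCT-1-1 on 2L, had no region in any list. How the authors placed reads that match several copies is not stated in the files used here.

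Uniqueness of the sequence was described for each gene. A word of 31 bases was taken as unique when it occurs once in the genome, a length chosen for description because the read length is not given in the sources used here. Inside tRNA genes the median share of unique words was 0%, and 261 of 295 genes were under 50%. In windows of 500 bp on each side of the start the median was 92.1%, beside 100% for other genes, and 6 of the 295 windows were under 50%. The 5 genes with an optimal peak had 93.0 to 95.4%. Windows of genes with and without a region had similar medians, 92.0% and 92.6% in replicate 3 and 94.3% and 91.1% in replicate 4. The low end differed: the 6 windows under 50% all belonged to genes with no region in the pooled or either replicate list. The lowest window of a gene with a region was 56.1% in replicate 3 and 81.8% in replicate 4, beside 26.2% without one. The part of repeated sequence in the low count of summits inside tRNA genes was not tested.

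The promoter letters were more common in tRNA genes than after other TSSs. The B box letters GTTCNANNC were present on the sense strand of 274 of the 295 tRNA genes (92.9%), beside 1.57% of 23289 other TSSs searched over their first 73 bases. The A box letters TNGCNNAG were present in 147 (49.8%), beside 5.94%. Only these letters were searched, so a gene without a match is not shown to lack an A box. In 101 bases around each summit, searched on both strands, the B box letters were at 9 of the 82 pooled regions at tRNA genes (11.0%), beside 3.06% of all pooled regions. The 82 regions were chosen for lying near tRNA genes, and 18 of their summits lay within 100 bp of a start. A window can thus hold the gene's own box, so this share does not measure a preference for the letters. The B box letters were at 0 of the 4 optimal peaks at tRNA genes, and at 36 of the 1302 optimal peaks (2.76%), none of these at a tRNA gene. The A box letters were at 13 of the 82 (15.9%), beside 17.0% of all pooled regions, and at 0 of the 4 optimal peaks at tRNA genes, beside 15.1% of all optimal peaks.

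Letters of other elements were also looked up at the 4 summits. The core of the CTCF element, AGNNGGCGC, was at none of the 4 and at 6.22% of all optimal peaks. It was at 3 of the 82 pooled regions at tRNA genes (3.66%), beside 1.81% of all pooled regions. The DRE letters TATCGATA were at none of the 4 and at 1.31% of optimal peaks, and TATAAA was at 1 of the 4 and at 13.9%. Mean GC content was 33.2% at the 4 summits, 38.1% over all optimal peaks, 42.1% at the 82 regions and 45.2% over all pooled regions. A match of letters is a description of these windows and says nothing of which factor was there.

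Genes for the machinery of Pol III and tRNA charging were examined beside the tRNA genes. Of 15 genes for Pol III subunits and factors, 3 had an optimal peak within 500 bp of a TSS, as did 2 of 20 aminoacyl-tRNA synthetase genes, whose enzymes load the amino acid, and 0 of 2 maturation genes, La and RNaseZ. Genes listed as other Pol III transcripts, RNaseP:RNA among them, had none of 103, and the polymerase of each was not examined. Of these, 96 are 5S ribosomal RNA genes of a repeated array with no pooled region at all. Outside that array, snRNA:U6:96Ab, snRNA:U6:96Ac and RNaseMRP:RNA had a pooled region. Over all genes, 39.0% had a pooled region. In all, 5 of 140 genes had an optimal peak, beside 4.18% of all genes. That total includes the 96 genes of the 5S array, so it does not describe the machinery and synthetase genes. Beside their 3 of 15 and 2 of 20, the share of protein-coding genes was 4.90%, and no test was made.

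Among these were some genes for TFIIIB subunits. Bdp1, a subunit of TFIIIB, had the strongest (chr2L:13373797-13374232), with a pooled signal of 150 at rank 313, 76.7 in replicate 3 and 81.7 in replicate 4. Brf, another TFIIIB subunit, had a peak of 99.1 at chr3R:17391202-17391637, with 59.3 and 33.3. Both peaks were listed in both replicates, and Bdp1 ranked above each of the tRNA genes except tyrosine. Trf and Tbp, also among the listed Pol III factors, had no optimal peak, and only Tbp of these had a pooled region.

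Of the synthetases, IleRS, which charges the isoleucine tRNA, had a peak of 85.0 at chr3L:22288300-22288735, with 41.9 and 43.9. GluProRS, which charges the glutamate and proline tRNAs, had 69.8 at chr3R:23958323-23958758, with 32.4 and 40.3. The peaks at Bdp1, Brf, IleRS and GluProRS each also lay within 500 bp of a TSS of another gene. The nearest was 4 bp away at Bdp1 (CG6565), 110 bp at GluProRS (AP-1sigma), 174 bp at Brf (sds22) and 323 bp at IleRS (Hem). At Bdp1 and GluProRS the neighbour's TSS was nearer to the summit than the gene's own.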

How the data were processed

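The authors deposited region lists in narrowPeak form from anti-GFP ChIP-seq of both replicates. Signal is a deposited score in column 7 whose scale is not stated, and the deposited summit offset in column 10, added to the region start, gave the summit. Per the submitters' text files, calling used a control library that is not used here. Aligner, peak caller and read numbers were not given in the sources used here, so depth is unknown and intervals cover the counting of genes or regions alone. Lists on the older build were left out.

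The 4 dm6 lists were read with Python 3.11.15 and pandas 2.3.3. Genes came from Ensembl release 115 (BDGP6.54) and sequence from RefSeq Release 6. Transposon genes and genes off the chromosome arms were left out. Regions overlap when they share at least 1 bp. Summits were set against the nearest TSS, and the 1302 highest regions of each replicate matched the optimal list in number. The counting was checked on simulated regions. No test was run, because the series has 1 group and genes are not replicates.

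Named were all tRNA genes with an optimal peak or a region among the 1302 highest of a replicate, the 10 next pooled regions, their neighbours, and pathway genes with an optimal peak, of which 1 is not reported here. Other genes were named after their values were seen. The members, lists and rules were chosen with earlier results of these data known, and the A box letters were widened after a first search. Of the listed pathway symbols 5 had no match.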

Additional observations from a re-analysis of the deposited data

How the results depend on the processing

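The count of 5 tRNA genes with an optimal peak was 3 with a 250 bp window, 9 with 1000 bp, 5 when distance was taken from the gene body, 2 when the region had to overlap the gene, and 1 in the upper part of the optimal list by signal. With the highest regions of either replicate in place of the pool it was 4 in each (4 to 4). The 4 peaks became 2, 7 and 1 with the windows of 250 and 1000 bp and the upper part of the list, and 3 to 4 with 1 replicate. The 96 genes with a pooled region became 47 and 158 with those windows, and 56 to 138 with the regions of 1 replicate: 56 with replicate 4 and 138 with replicate 3. The share of regions that were optimal ran from 3.12% (without tRNA genes near another TSS) to 4.93%, beside 4.88%. The count of 5 pathway genes stayed 5 with both windows and was 3 to 5 with 1 replicate, 3 with replicate 3. Those 3 were Brf, Bdp1 and the synthetase gene SerRS, which had no optimal peak. No paired analysis was possible because both samples belong to 1 group.

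Counts of optimal peaks at tRNA genes are small, so each rests on a few regions, and the arginine peak on replicate 3. Peaks cannot be assigned to a gene within the length of the fragments. The unknown depth, the unused control library and the absence of an untagged line limit what a weak region means.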

Other observations

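Some optimal peaks lay just beyond the 500 bp rule. The strongest was 828 bp downstream of the start of tRNA:Trp-CCA-2-1, at chr2L:4418045-4418396, with a pooled signal of 603 at rank 55, above every peak within the rule, and the nearest TSS of another class, CG43055, was 7065 bp away. The peak 553 bp upstream of tRNA:Ile-AAT-1-9 had a signal of 94.3 at rank 749, and that 559 bp upstream of tRNA:Leu-CAA-2-2 had 75.7 at rank 1119. These genes were named after their values were seen.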
